A study of Mus musculus with 17 samples.

Results

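The heparan sulfate sulfotransferases described here are *Hs2st1*, *Hs6st1*, *Hs6st2*, *Hs6st3*, *Hs3st1*, *Hs3st2*, *Hs3st4*, *Ndst1*, *Ndst2*, and *Ndst3*. They were chosen by symbol, by matching the Ensembl identifiers of the count tables, and all 10 were found among the 26556 genes listed. The measurements are RNA-seq read counts per gene in 17 libraries of astrocytes from *Gfap::GFP* mice of the FVB strain at postnatal day 7, each made from 4 pooled brains. The cortex, dissected as primary somatosensory cortex, gave 4 libraries. The thalamus gave 13, of which 5 came from the dorsolateral geniculate nucleus (dLG), 4 from the ventral posteromedial nucleus (VPM), and 4 from the ventral division of the medial geniculate nucleus (MGv). All groups share the strain, age, and transgene, no group was treated, and the cells were sorted on green fluorescence driven by the *Gfap* promoter, so that what was collected depends on that promoter's activity in each region. The labels do not say whether libraries came from separate litters, and p-values therefore measure only the spread between these libraries.

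Heparan sulfate is a long sugar chain attached to core proteins at the cell surface and in the extracellular matrix, where it binds growth factors, morphogens, and axon guidance cues. Its binding depends on where sulfate groups sit. Enzymes of the Ndst family first replace acetyl groups on the nitrogen of glucosamine with sulfate, *Hs2st1* then sulfates the uronic acid, the Hs6st enzymes sulfate carbon 6 of glucosamine, and the Hs3st enzymes add the rarest modification at carbon 3. Astrocytes are known to make heparan sulfate proteoglycans that act on the growth and synapses of neighboring neurons.

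The promoters of *Hs3st2*, *Hs2st1*, and *Hs3st4* are shown because these are the members with the lowest p among the 4 groups below. Each is the 250 bases before the transcription start given by RefSeq on GRCm38.p6, 5′ to 3′ on the strand of the gene, and capitals mark GC boxes (GGGCGG on either strand). The first bases after the start were found in a GENCODE transcript of the gene for *Hs3st2*, but not for *Hs2st1* or *Hs3st4*. That of *Hs3st2* lies on the + strand at chr7:121392046-121392295, that of *Hs2st1* on the - strand at chr3:144570217-144570466, and that of *Hs3st4* on the + strand at chr7:123982578-123982827.
Hs3st2: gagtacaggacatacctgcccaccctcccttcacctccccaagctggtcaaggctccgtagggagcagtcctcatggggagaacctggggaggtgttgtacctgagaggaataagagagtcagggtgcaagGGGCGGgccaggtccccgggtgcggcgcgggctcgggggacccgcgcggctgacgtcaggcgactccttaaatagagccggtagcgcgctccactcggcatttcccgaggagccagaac
Hs2st1: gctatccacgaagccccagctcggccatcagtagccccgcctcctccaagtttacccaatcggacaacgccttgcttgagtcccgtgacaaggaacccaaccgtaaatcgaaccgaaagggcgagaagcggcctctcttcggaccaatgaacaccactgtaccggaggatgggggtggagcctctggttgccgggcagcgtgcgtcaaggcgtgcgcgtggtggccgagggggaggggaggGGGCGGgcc
Hs3st4: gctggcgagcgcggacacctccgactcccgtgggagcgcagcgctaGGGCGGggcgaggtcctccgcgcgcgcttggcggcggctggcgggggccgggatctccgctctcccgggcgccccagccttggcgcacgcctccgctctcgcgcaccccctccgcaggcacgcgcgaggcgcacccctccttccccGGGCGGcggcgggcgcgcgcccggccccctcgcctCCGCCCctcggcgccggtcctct
A GC box was found 1 time in the window of *Hs3st2*, 1 time in that of *Hs2st1*, and 3 times in that of *Hs3st4*, and 32.7% of 32851 windows of the same length hold at least 1. The share of G and C was 64.8% for *Hs3st2*, 64.4% for *Hs2st1*, and 82% for *Hs3st4*, against a median of 52.4% over all windows. The other motifs searched on both strands were TATAAA, found in 12.4% of windows, CCAAT in 33.8%, TGACG in 17.8%, CAGATG in 14.4%, and CAGCTG in 13%. Of these, CCAAT occurred 2 times and TGACG 1 time in the window of *Hs2st1*, TGACG 2 times in that of *Hs3st2*, where both matches overlap on opposite strands, and neither in that of *Hs3st4*. These are matches of letters and say nothing of binding. Windows were matched for 9 of the 10 members, the entry not matched being *Ndst1*.

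Totals ranged from 18213687 to 50366363 counts per library, with the highest in cortex library a, and levels are given as CPM, that is counts scaled to library size, here with edgeR's TMM factors. A level of 3 counts corresponds to at most 0.165 CPM before the TMM factors are applied, and this floor covers counting error only. The dLG library c stands apart, with 17749 genes detected against 21052 to 23365 in the others, and it is alone in its series of library numbers. The labels' library numbers form 3 series, of which the largest holds 10 libraries, namely all 4 of the MGv and 2 each of the cortex, dLG, and VPM. Results are given without dLG library c below where it matters. Of the checks of the cells, *Slc1a3*, the glial glutamate transporter, averaged 5227 ± 514.3 CPM over cortical (SD, n = 4) and 1586 ± 207.4 CPM over thalamic libraries (SD, n = 13), and *Rbfox3*, a splicing factor of neurons, averaged 38.1 ± 5.67 and 16.5 ± 7.73 CPM over the same libraries. Of the 10 astrocyte markers 4 were called between the regions by edgeR, with *Slc1a2*, *Slc1a3*, and *Aldoc* higher in the cortex and *S100b* higher in the thalamus. Of the 10 neuronal markers 3 were called, with *Rbfox3* higher in the cortex and the neurofilament genes *Nefl* and *Nefm* higher in the thalamus. Of all genes 5.93% were called higher in the cortex and 5.45% higher in the thalamus. Among the 4 groups edgeR called 8 of the 10 astrocyte, 3 of the 10 neuronal, and 4 of the 9 oligodendrocyte lineage markers. It also called 4 of 6 microglial, 2 of 6 mural, 2 of 5 ependymal, and 0 of 5 endothelial markers, beside 26.3% of all genes. Summed astrocyte markers ranged from 12970 to 13962 CPM over cortical libraries, from 7914 to 9450 CPM in the dLG, from 6753 to 9271 CPM in the VPM, and from 6385 to 15684 CPM in the MGv. No gene of the 10 astrocyte, 10 neuron, or 9 oligodendrocyte lineage markers was at 0 in any library. Summed oligodendrocyte lineage markers ranged from 7432 to 9327 CPM over cortical and from 6885 to 12073 CPM over thalamic libraries, those of the VPM reaching from 7389 to 12073 CPM, and summed neuronal markers from 1375 to 1649 CPM and from 944 to 2386 CPM. All 5 endothelial markers were at 0 in at least 1 library, as was 1 of 6 microglial markers. Summed microglial markers ranged from 10.8 to 19.7 CPM over cortical and from 6.68 to 91.8 CPM over thalamic libraries. Summed endothelial markers ranged from 2.03 to 5.06 CPM and from 0.259 to 40.7 CPM, and both sums were highest in a dLG library. Summed mural markers ranged from 167.7 to 650.3 CPM over all libraries, with *Pdgfrb* called higher in the cortex. The median mural marker was at 2.18 CPM, and the mural list shares a gene with the oligodendrocyte lineage list. Summed ependymal markers ranged from 4.58 to 96.2 CPM over cortical and from 1.7 to 9.01 CPM over thalamic libraries, with *Foxj1* and *Rsph1* called higher in the cortex. Of the 6 mural markers 4 were at 0 in at least 1 library, as were 3 of the 5 ependymal markers. The part of these cell types in the results was not tested.

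The cortical and thalamic libraries of sorted cells differed in 2 of the 10 sulfotransferases, and both were higher in the cortex. *Hs3st2*, which adds 3-O-sulfate, was about 13-fold higher there, and *Hs2st1*, the enzyme of 2-O-sulfation, 1.45-fold. The other 8 members did not pass the threshold of an adjusted p under 0.1 in edgeR's quasi-likelihood test. No member was called higher in the thalamus, against 5.45% of the 17856 genes tested (1 had an unadjusted p under 0.05, and DESeq2 called 1, in both cases *Ndst3*), and 2 were called higher in the cortex, against 5.93%. The members' median log2 fold change (log2FC, thalamus over cortex) was 0.17, beside 0.02 over all genes tested. All 10 members passed the filter on low counts.

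**Figure D1:**
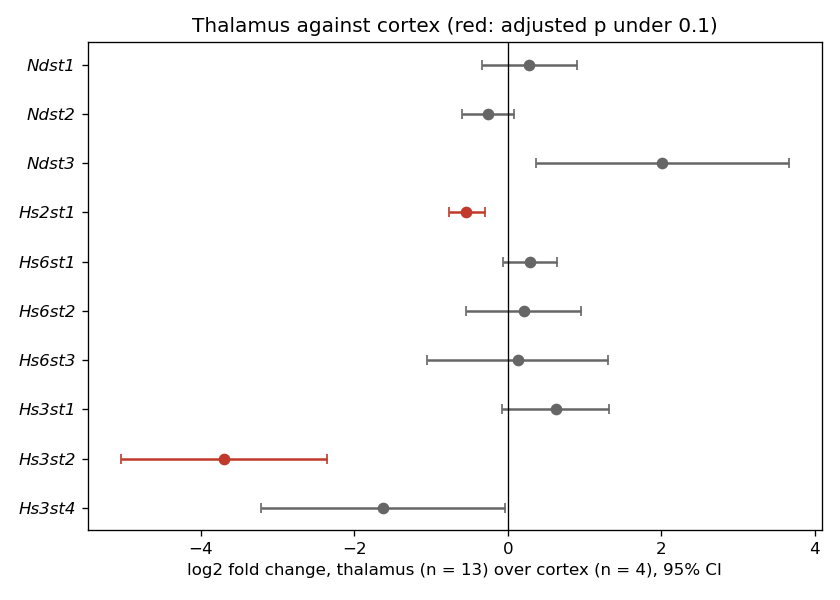
Fitted log2 fold change of each sulfotransferase between the 13 thalamic and 4 cortical libraries, with 95% confidence intervals, with red for adjusted p under 0.1. *Hs3st2* at -3.70 and *Hs2st1* at -0.54 are the called members, and the intervals of *Hs3st4* and *Ndst3* are the widest of the others.

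Among the N-deacetylase/N-sulfotransferases, which act first, *Ndst1* and *Ndst2* were the abundant ones. Per kilobase of exonic length, averaged over all libraries, *Ndst2* was at 6.83 CPM, *Ndst1* at 5.42 CPM, and *Ndst3* at 0.284 CPM. *Ndst1* encodes a broadly expressed enzyme and lies on chromosome 18 from 60684494 to 60748650. It was at 31.7, 36.6, 43.8, and 41.8 CPM in the cortex, at 31.4, 51.6, 94.8, 31.4, and 85.1 CPM in the dLG, at 30.1, 33, 32.5, and 24.4 CPM in the VPM, and at 39.1, 58.6, 46.1, and 50.5 CPM in the MGv. The dLG libraries c and e were the highest, the other dLG libraries lay within the range of the other groups, and the VPM and MGv did not overlap.

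Among the 4 groups *Ndst1* passed the threshold (adjusted p = 0.0641, edgeR), in a test in which 26.3% of all genes passed. Its order of means was dLG, MGv, cortex, and VPM, at 58.9 ± 29.7 (SD, n = 5), 48.6 ± 8.17 (SD, n = 4), 38.5 ± 5.44 (SD, n = 4), and 30 ± 3.92 CPM (SD, n = 4). Of the 6 pairs, the dLG against the VPM was called, with a log2FC of 0.97 (SE 0.28, adjusted p = 0.0405, edgeR), where 13.7% of all genes were called. Neither the dLG and MGv (log2FC 0.28, 95% CI -0.29 to 0.84) nor the MGv and cortex (log2FC of the cortex over the MGv -0.34, 95% CI -0.93 to 0.26) were separated. Without dLG library c the adjusted p among the groups was 0.113 and that of dLG against VPM 0.0996, with a log2FC of 0.73. The call among the groups was also lost without any of cortex b, dLG e, VPM a, and VPM d (adjusted p at most 0.13), and that of the pair without VPM d (adjusted p = 0.109), all from edgeR. In the largest number series the adjusted p was 0.2 among the groups and 0.366 for the pair, and with number series as covariate 0.138 and 0.116 (edgeR).

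*Ndst2*, another N-deacetylase/N-sulfotransferase, on chromosome 14, varied least of the Ndst genes. Its values were 29, 35.7, 33.4, and 43.7 CPM for cortical libraries, 28, 32.1, 33.9, 33.3, and 22.8 CPM in the dLG, 25.7, 19.5, 27.4, and 28.7 CPM in the VPM, and 27.1, 28.2, 42.6, and 36.4 CPM in the MGv. Every VPM library lay below every cortical one, yet no comparison was called, and the log2FC of the cortex over the VPM was 0.48 (95% CI 0.09 to 0.88, adjusted p = 0.162, edgeR). For the regions the interval of its log2FC ran from -0.59 to 0.08.

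*Ndst3*, a member with restricted expression that has been described mainly in brain, was low in every group. It was at 0.0432, 0.344, 1.48, and 1.54 CPM in the cortex, at 4.73, 4.54, 0.0944, 2.59, and 5.85 CPM in the dLG, at 1.67, 0.948, 2.55, and 3.55 CPM in the VPM, and at 2.65, 2.9, 6.17, and 5.98 CPM in the MGv. All MGv libraries were above all cortical libraries, while the dLG library c, with 2 counts, was at the level of the lowest cortical library, which also had 2 counts. The MGv over the cortex was the called pair for it, with a log2FC of the cortex over the MGv of -2.40 (SE 0.88, adjusted p = 0.0935, edgeR), where 15.4% of all genes were called. This call was lost without any of 12 single libraries (cortex a, b, and d, dLG a and b, all 4 of the MGv, and VPM a, c, and d), with adjusted p from 0.103 to 0.229 in edgeR, and when low counts were not filtered (adjusted p = 0.11). In the comparison of the regions its log2FC was 2.01 (SE 0.79, adjusted p = 0.136, edgeR), and this passed the threshold without dLG library c (log2FC 2.14, adjusted p = 0.043), with DESeq2 (adjusted p = 0.0357), and in a fit with number series as covariate (log2FC 2.27, adjusted p = 0.0215). Its exact permutation test over the libraries, 2-sided, gave p = 0.0155, which is not adjusted for the number of members.

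*Hs2st1* is the only 2-O-sulfotransferase gene of heparan sulfate. Per kilobase it was the most abundant member in the cortex, at 18.1 ± 1.22 CPM (SD, n = 4) beside 8.9 ± 1.14 CPM for the next, *Hs3st1*, while in the VPM and MGv the difference between these 2 genes was smaller than their spread. It lies on the - strand of chromosome 3 from 144429706 to 144570181. It was at 161.1, 139.9, 141, and 151.7 CPM in the cortex. In the thalamus it was at 114, 129.8, 108.4, 108.4, and 107.5 CPM in the dLG, at 106.4, 93.4, 86, and 93 CPM in the VPM, and at 104.3, 71.7, 104.6, and 103.1 CPM in the MGv. The lowest cortical library lay above the highest thalamic library, and within the thalamus the dLG libraries did not overlap with either of the other nuclei.

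The log2FC of *Hs2st1* between the regions was -0.54 (SE 0.11, 95% CI -0.77 to -0.30, adjusted p = 0.00416, edgeR), and the exact permutation test gave p = 0.00042, the smallest value that the arrangements of 4 and 13 libraries allow. All 3 nuclei were lower than the cortex, where the log2FC of the cortex was 0.39 over the dLG (SE 0.12, adjusted p = 0.0415), 0.65 over the VPM (SE 0.13, adjusted p = 0.00295), and 0.63 over the MGv (SE 0.13, adjusted p = 0.00357), all with edgeR. In these comparisons 19.4%, 9.00%, and 15.4% of all genes were called. No pair of nuclei was called, the log2FC being 0.26 for dLG over VPM (adjusted p = 0.19), 0.24 for dLG over MGv (adjusted p = 0.782), and -0.02 for VPM over MGv (adjusted p = 0.95, all edgeR). In the 10 libraries of the largest number series alone, 2 of the cortex and 8 of the thalamus, the log2FC of the regions was -0.53 and the adjusted p 0.181. The call over the dLG was lost there (adjusted p = 0.642) and without cortex a, cortex d, or dLG e (adjusted p from 0.105 to 0.134, edgeR).

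**Figure D2:**
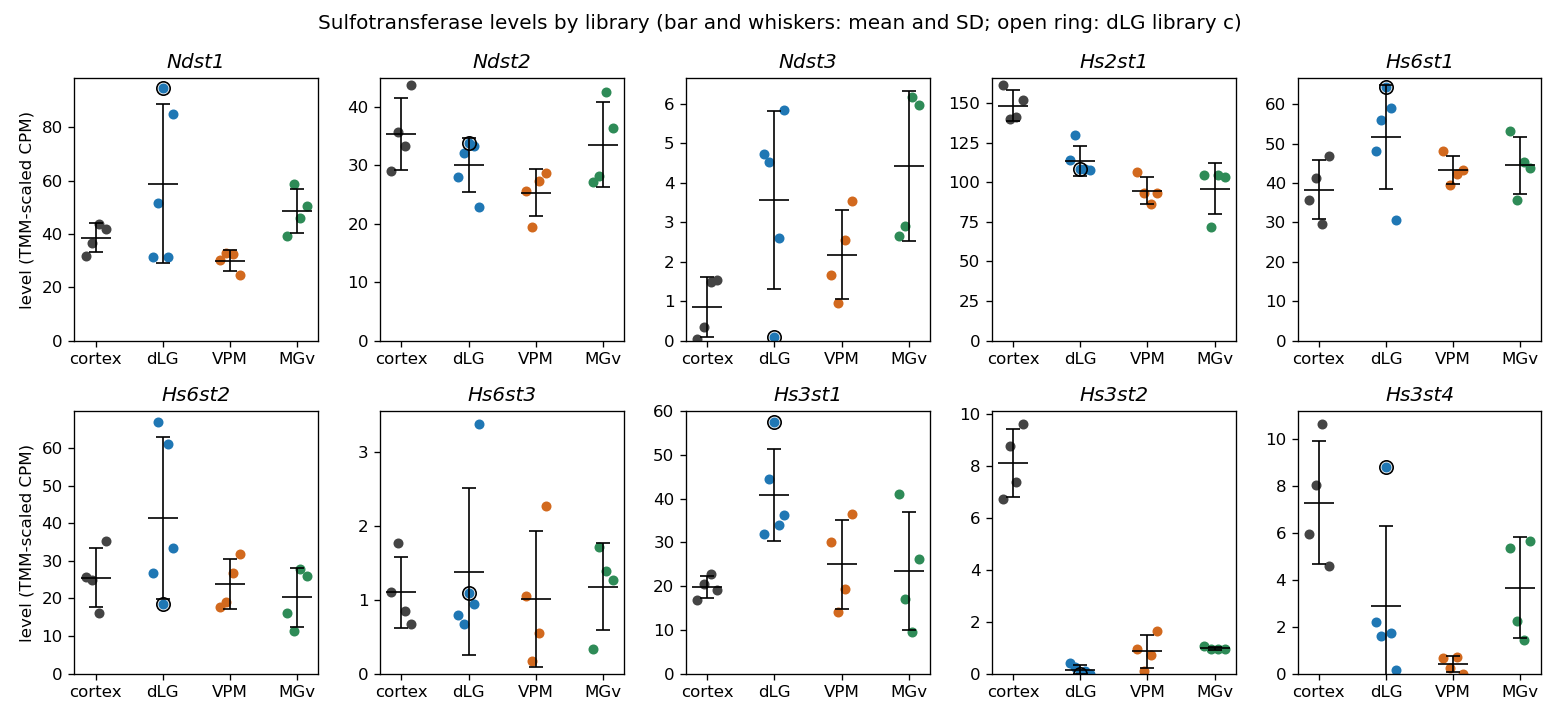
Level of each sulfotransferase in CPM in every library of the 4 groups, with the mean and SD as a bar with whiskers, and with an open ring around dLG library c. The 4 cortical libraries stand above all 13 thalamic libraries for *Hs2st1* (lowest 139.9 against highest 129.8 CPM) and for *Hs3st2* (6.71 against 1.63 CPM).

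None of the 3 enzymes of 6-O-sulfation passed the threshold in edgeR's tests of all libraries, between the regions or among the 4 groups, while *Hs6st2* passed among the groups with DESeq2 (adjusted p = 0.0558) and with number series as covariate (adjusted p = 0.0413, edgeR). *Hs6st1* was the most abundant of them per length, at 8.10 CPM per kilobase over all libraries, followed by *Hs6st2* at 3.65 and *Hs6st3* at 0.688. *Hs6st1* was at 35.8, 41.4, 29.5, and 46.8 CPM in the cortex, at 48.1, 56, 64.5, 59.1, and 30.6 CPM in the dLG, at 48.1, 39.6, 42.2, and 43.4 CPM in the VPM, and at 53.2, 35.7, 45.3, and 43.8 CPM in the MGv. The groups overlapped in all 6 pairs. The log2FC between the regions was 0.29 (95% CI -0.06 to 0.64, adjusted p = 0.344, edgeR). Among the groups its adjusted p was 0.361, and 0.0501 without dLG library e. An annotated gene on the other strand overlaps 8.07% of its exonic length, and the strand setting of the counting is not given in the sources used here.

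*Hs6st2*, on the X chromosome, ranged from 16.2 to 35.2 CPM in the cortex, from 18.4 to 67 CPM in the dLG, from 17.6 to 31.9 CPM in the VPM, and from 11.4 to 27.7 CPM in the MGv. The dLG libraries b and d, at 67 and 61.1 CPM, lay above all others, and the dLG library c at 18.4 CPM was the lowest of that nucleus. Its mean was 41.3 ± 21.5 CPM for the dLG (SD, n = 5), higher than the 20.3 ± 7.83 CPM of the MGv (SD, n = 4) but not past the threshold, with a log2FC of 1.02 (95% CI 0.28 to 1.77, adjusted p = 0.352, edgeR). No member was called between the dLG and MGv by edgeR, where 1.02% of all genes were called, while 3 had an unadjusted p under 0.05 and DESeq2 called 1, *Hs3st2*. Without dLG library c, the adjusted p of *Hs6st2* among the 4 groups went from 0.121 to 0.0336. This gene also passed without dLG a or MGv c (adjusted p at most 0.0909, edgeR).

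*Hs6st3* was low in every group, with 3 to 67 counts per library. Its level lay between 0.675 and 1.77 CPM in the cortex, between 0.669 and 3.38 CPM in the dLG, between 0.167 and 2.27 CPM in the VPM, and between 0.337 and 1.71 CPM in the MGv. The groups overlapped throughout, and the log2FC between the regions was 0.13 (95% CI -1.05 to 1.31, adjusted p = 0.931, edgeR).

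The 3-O-sulfotransferases held 3 of the 5 members called among the groups, in a test in which 26.3% of all genes passed. Each of the 3 had a different order of group means. *Hs3st2*, on the + strand of chromosome 7 from 121391859 to 121501770, is known for its expression in the nervous system. It was at 6.71, 8.75, 7.37, and 9.6 CPM in the cortex, from 149 to 311 counts. It was at 0.421, 0.239, 0, 0.0995, and 0 CPM in the dLG, at 0.955, 0.112, 0.7, and 1.63 CPM in the VPM, and at 1.06, 0.932, 0.949, and 0.951 CPM in the MGv. Every thalamic library was below every cortical library, and every dLG library was below every MGv library.

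Between the regions the log2FC of *Hs3st2* was -3.70 (SE 0.64, 95% CI -5.04 to -2.36, adjusted p = 0.00076, edgeR), and the exact permutation test gave p = 0.00042, again the smallest it allows. It passed the threshold in each of the 24 alternative fits of the region comparison, with adjusted p from 5.54e-06 to 0.00507, and in the largest number series its log2FC was -3.29 (adjusted p = 0.00142, edgeR). The log2FC of the cortex was 5.67 over the dLG (SE 0.77, adjusted p = 5.6e-05), 3.24 over the VPM (SE 0.73, adjusted p = 0.00825), and 3.05 over the MGv (SE 0.73, adjusted p = 0.0112), all with edgeR. Within the thalamus the dLG was lower than the VPM (log2FC -2.43, SE 0.74, adjusted p = 0.053, edgeR), with at most 9 counts in any dLG library, and the call was lost in the fit of the 3 nuclei alone, in the largest number series, and without VPM a, VPM c, or VPM d (adjusted p from 0.107 to 0.237, edgeR). Its log2FC over the MGv was -2.62 (adjusted p = 0.158, edgeR). An annotated gene on the other strand overlaps 9.05% of its exonic length.

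*Hs3st4*, also on chromosome 7, had its lowest mean in the VPM. It was at 5.92, 8.01, 10.6, and 4.58 CPM in the cortex, at 2.2, 1.58, 8.78, 1.74, and 0.151 CPM in the dLG, at 0.668, 0.223, 0.7, and 0 CPM in the VPM, and at 5.34, 2.23, 1.42, and 5.62 CPM in the MGv. The VPM lay below all cortical and all MGv libraries, with at most 14 counts, while the dLG overlapped with every other group, with library c in the range of the cortex and library e in that of the VPM.

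Among the 4 groups *Hs3st4* passed the threshold (adjusted p = 0.0233, edgeR). The log2FC of the cortex over the VPM was 4.17 (SE 0.94, adjusted p = 0.00825), that of the dLG over the VPM 2.84 (SE 0.89, adjusted p = 0.0583), and that of the VPM over the MGv -3.17 (SE 0.92, adjusted p = 0.0382), all with edgeR. In the last of these 15.4% of all genes were called, and *Hs3st4* was the called member. Without dLG library c, the log2FC of the dLG over the VPM was 1.81 (adjusted p = 0.166), and that call was also lost without VPM a, VPM b, or VPM d (adjusted p at least 0.103), in the fit of the 3 nuclei (0.11), with number series as covariate (0.198), and in the largest number series (0.326). Between the regions the log2FC was -1.62 (SE 0.76, adjusted p = 0.228, edgeR), and without that library -1.99 (adjusted p = 0.0852). It also passed with number series as covariate (log2FC -2.48, adjusted p = 0.0391) and as the mean of the nuclei in the 4-group fit (log2FC -2.16, adjusted p = 0.0237). The exact permutation test between the regions gave p = 0.0143, not adjusted.

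*Hs3st1*, whose enzyme is known for making the antithrombin binding site, was the most abundant 3-O-sulfotransferase and the most abundant member per length in the dLG, at 18.3 CPM per kilobase against 13.8 CPM for *Hs2st1*, with SDs of 4.72 and 1.15. It was at 16.8, 20.6, 22.8, and 19.2 CPM in the cortex, and the dLG held 32, 44.5, 57.6, 33.9, and 36.2 CPM. In the VPM it was at 30, 14.1, 19.4, and 36.5 CPM, and in the MGv at 41, 17.1, 9.4, and 26.3 CPM. The dLG lay above the cortex without overlap, and both other nuclei overlapped with both. The log2FC of the cortex over the dLG was -1.04 (SE 0.33, adjusted p = 0.046, edgeR). Among the groups the adjusted p was 0.0862, without dLG library c it was 0.206, and in the largest number series it was 0.601. It was also above the threshold without cortex a, b, or d, dLG b, or VPM c, and the pair was lost without cortex a or cortex b (adjusted p = 0.101 to 0.124, edgeR). With number series as covariate the adjusted p was 0.218 among the groups and 0.11 for the pair, and for the pair in the largest number series it was 0.471 (edgeR).

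The level of *Hs3st1* was correlated with that of the neuronal markers. Over the 13 thalamic libraries, centred within nuclei, Pearson's r between its log2(CPM + 0.5) and the mean of the 10 neuronal markers was 0.94, and with the mean of the 10 astrocyte markers it was -0.84. For the other 9 members the r with the neuronal markers lay between -0.09 and 0.49. These are descriptions over 13 points that share each library's scaling, and the part of neuronal RNA in the levels was not tested. *Hs3st1* averaged 40.8 ± 10.5 CPM over dLG (SD, n = 5) and 19.8 ± 2.54 CPM over cortical libraries (SD, n = 4), where summed neuronal markers ranged from 1613 to 2077 CPM and from 1375 to 1649 CPM. In bulk libraries, fewer cells of a type and less RNA per cell cannot be told apart.

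**Figure D3:**
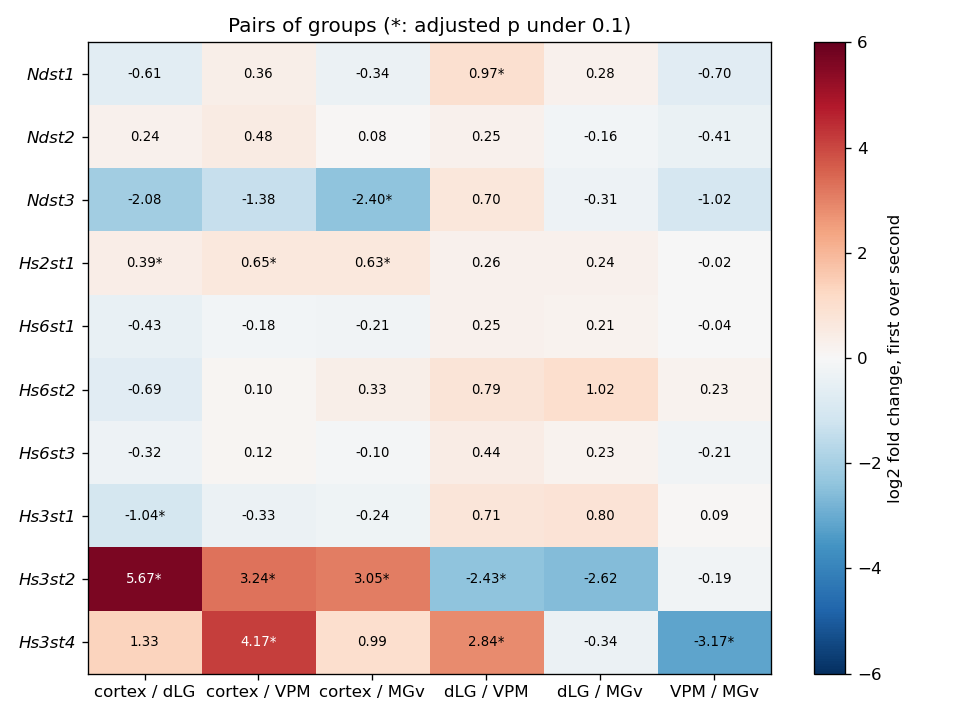
Fitted log2 fold change of each sulfotransferase in the 6 pairs of groups, first group over second, with an asterisk for adjusted p under 0.1. The columns of the cortex over the dLG, VPM, and MGv hold 9 of the 13 called values. Of all genes, 19.4%, 9.00%, and 15.4% were called in these columns. Those of dLG over VPM and VPM over MGv hold the others, where 13.7% and 15.4% of all genes were called. The column of dLG over MGv, where 1.02% of all genes were called, holds none.

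Over the 6 pairs, 3 members each were called between the cortex and the dLG, VPM, and MGv, where 19.4%, 9.00%, and 15.4% of all genes were called. There were 3 between the dLG and VPM and 1 between the VPM and MGv, against 13.7% and 15.4% of all genes, and none between the dLG and MGv, where the share of all genes was 1.02%. Over all 17 libraries, 5 of the 10 members differed among the 4 groups, namely *Hs2st1*, *Hs3st1*, *Hs3st2*, *Hs3st4*, and *Ndst1*, beside 26.3% of all genes. The pairs that share a group are not independent of each other.

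The makeup of each family was then compared per length. Within the 6-O-sulfotransferases *Hs6st1* made up 64.2 ± 2.3% (SD, n = 4) of the family's summed CPM per kilobase in the cortex and 66.5 ± 10.3% (SD, n = 13) in the thalamus. Within the Ndst family *Ndst2* made up 61.8 ± 3.30% (SD, n = 4) and 53.1 ± 9.77% (SD, n = 13), and *Ndst1* and *Ndst2* together left little to *Ndst3* and *Ndst4*. By nucleus, the share of *Ndst2* was 49 ± 13.5% for the dLG, 58.6 ± 5.91% for the VPM, and 52.8 ± 5.9% for the MGv. Among the 3-O-sulfotransferases, *Hs3st1* made up 52.1 ± 1.80% for cortical libraries, 75.8 ± 5.24% for the dLG, 65.5 ± 4.81% for the VPM, and 50.9 ± 11% for the MGv. The share of *Hs3st2* was 15.6 ± 2.31% for the cortex, 0.231 ± 0.297% for the dLG, 1.46 ± 0.784% for the VPM, and 1.89 ± 0.846% for the MGv. *Hs3st4* made up 13.3 ± 3.87% in the cortex and 0.831 ± 0.650% in the VPM. These shares are descriptions, and no test was run on them.

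**Figure D4:**
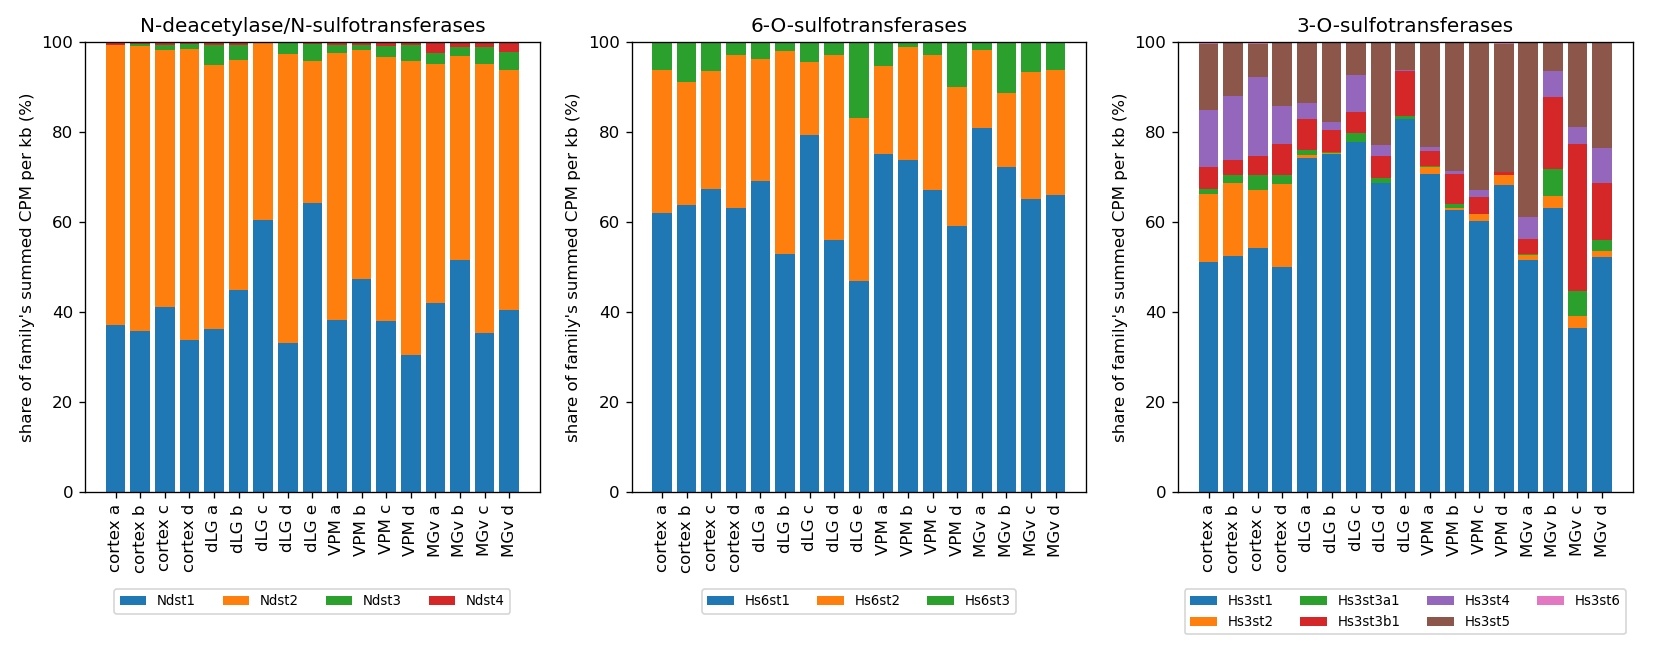
Share of each gene in the summed CPM per kilobase of its family, for the N-deacetylase/N-sulfotransferases, the 6-O-sulfotransferases, and the 3-O-sulfotransferases, 1 stacked bar per library. *Hs3st2* and *Hs3st4* are visible in all 4 cortical bars and *Hs3st2* is nearly absent from the dLG bars.

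The sulfotransferases of heparan sulfate not among the 10 were examined as a list. Of these, *Hs3st3b1* averaged 12 ± 5.41 CPM over MGv, 4.02 ± 1.23 CPM over cortical, and 2.45 ± 1.08 CPM over VPM libraries (SD, n = 4 each), and differed among the groups (adjusted p = 0.00185, edgeR). *Ndst4* averaged 2.48 ± 1.03 CPM over MGv and 0.739 ± 0.137 CPM over cortical libraries (SD, n = 4 each), with adjusted p = 0.0612 among the groups. *Hs3st3a1* also passed in that test (adjusted p = 0.0596, both edgeR), with at most 2.90 CPM in any library. *Hs3st5* was not called (adjusted p = 0.246 among the groups, edgeR), with 3.31 to 60.1 CPM in the MGv, and *Hs3st6* was at no more than 4 counts in any library and was not tested. None of the 4 tested was called between the regions with edgeR or DESeq2, and 1, *Hs3st5*, had an unadjusted p under 0.05.

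The remaining genes of the pathway were examined as lists. Of 49 genes tested over the 6 heparan sulfate lists, that is other sulfotransferases, chain initiation and polymerization, sulfate donor supply, extracellular trimming, core proteins, and lysosomal degradation, 9 were called by edgeR, all of them higher in the cortex, where the share of all genes was 5.93% (5.45% in the other direction), and 40 were not called. Of the genes higher in the thalamus 3 had an unadjusted p under 0.05, and DESeq2 called 1, *Agrn*, the core protein agrin, which was chosen after its values were seen. The median log2FC over the 49 was -0.21, beside 0.02 over all genes. Among the 4 groups 23 of the 49 passed, beside 26.3% of all genes. *Glce*, the epimerase that makes iduronic acid, the sugar that *Hs2st1* sulfates, averaged 85.3 ± 10.9 CPM over cortical (SD, n = 4) and 38.8 ± 9.29 CPM over thalamic libraries (SD, n = 13). Its fitted log2FC was -1.14 (SE 0.16, adjusted p = 9.74e-05, edgeR). Its lowest cortical library, at 77.7 CPM, lay above its highest thalamic one, at 55.5 CPM.

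Of the 13 genes of chain initiation and polymerization, 4 were higher in the cortex, namely *Glce*, *Pxylp1*, *B4galt7*, and *Extl1*. *Pxylp1*, which removes a phosphate from the linkage region, had a log2FC of -0.86 (adjusted p = 0.00495), and *B4galt7*, which adds the first galactose of that region, one of -0.39 (adjusted p = 0.0701, both edgeR). Of 13 core proteins, 4 were higher in the cortex. *Col18a1*, which encodes collagen XVIII, averaged 13.3 ± 3.82 CPM over cortical (SD, n = 4) and 1.76 ± 0.916 CPM over thalamic libraries (SD, n = 13), and the glypicans *Gpc4*, *Gpc5*, and *Gpc6* had log2FCs of -1.19, -1.30, and -0.52 (adjusted p = 0.000269, 0.00516, and 0.0937, edgeR). *Sulf2*, an enzyme that removes 6-O-sulfate outside the cell, was the called gene of 3 tested for extracellular trimming (log2FC -0.51, adjusted p = 0.0956, edgeR). *Glce*, *Pxylp1*, *Col18a1*, *Gpc4*, and *Gpc5* were called in all 24 alternative fits, *B4galt7* in 20, *Extl1* in 8, *Sulf2* in 7, and *Gpc6* in 6. Leaving out any of 13 single libraries ended the call of *Extl1*, of *Sulf2*, or of *Gpc6*, with adjusted p up to 0.281, 0.303, and 0.261, and leaving out cortex a, b, or d ended that of *B4galt7*, with adjusted p up to 0.25 (edgeR). None of 8 genes of sulfate donor supply and none of 8 genes of lysosomal degradation were called by edgeR. At an unadjusted p under 0.05 there were 1 and 2, and DESeq2 called 0 and 1.

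**Figure D5:**
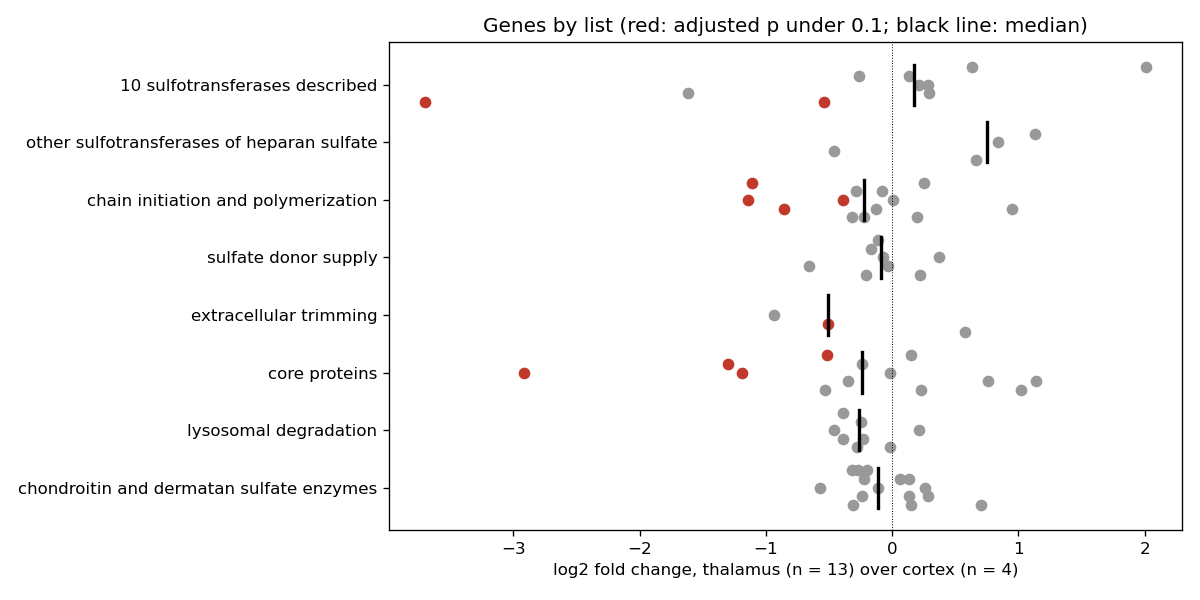
Fitted log2 fold change of thalamus over cortex for every tested gene of the 10 sulfotransferases and of 7 pathway lists, 1 point per gene, with red for adjusted p under 0.1 and the median of each list as a black line. The called genes all lie below 0, and the 15 chondroitin and dermatan sulfate enzymes hold none with edgeR, 1 having an unadjusted p under 0.05.

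For the 3 members with the lowest p among the groups, the genes of most similar pattern were found over the 17 libraries by Pearson's r of log2(CPM + 0.5), among 17847 other genes. For *Hs3st2* these were *Sfrp1* (r = 0.957), *Tpbg* (0.948), and *Emid1* (0.944), and their levels were likewise higher in the cortex, with *Sfrp1* at 148.7 CPM there on average and 26.5 CPM in the thalamus. For *Hs2st1* they were *Tmtc4* (0.924), *St6galnac5* (0.9), and *Eogt* (0.892), with *St6galnac5* at 183.5 and 11.5 CPM in those regions. For *Hs3st4* they were *Matk* (0.93), *Rab3b* (0.891), and *Mest* (0.89), with *Matk* at 45.9 and 25.4 CPM. These are the highest of many correlations and are given as descriptions.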

How the data were processed

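RNA-seq of astrocytes sorted by FACS from P7 *Gfap::GFP* mice was deposited by the authors as counts, 1 file of raw read counts per gene for each of the 17 libraries, without normalization. Per the paper's methods and the submitters' processing notes, 50-base single reads were trimmed, mapped to GRCm38 (mm10) with STAR 2.7.0d, and counted on Ensembl genes with featureCounts (Subread 1.6.4). FastQC 0.11.7 and SAMtools 1.9 are also named. Each file lists 26556 genes with a smallest total of 10 reads over all libraries.

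Groups were taken from the sample labels. Positions, exonic lengths, and symbols are those of GENCODE M21 (Ensembl 96), in which 8 identifiers had no symbol. *Bpnt2* was matched as *Impad1*, and *Hpse2* and *Chst13* were not analysed here. Genes with low counts were removed with filterByExpr, which left 17856, and counts were scaled by TMM. edgeR 4.0.16 (R 4.3.3, limma 3.58.1) was used for robust quasi-likelihood tests of thalamus against cortex (2 groups), of the 4 groups, and of their 6 pairs, with Benjamini-Hochberg adjustment over all genes tested and a threshold of 0.1. SEs were obtained as the absolute log2FC over the root of F. Exact permutation tests were 2-sided.

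The members and gene lists were chosen with earlier results of these data known. Text names all 10 members, the other 5 sulfotransferases, up to 4 genes per pathway list with the lowest adjusted p among those past the threshold between the regions, the 3 genes most similar to each of the 3 members with the lowest p among the groups, and *Rbfox3* and *Slc1a3*. The other markers called between the regions and *Agrn* were named after their values were seen. The alternatives were DESeq2 1.42.0, its size factors in edgeR, no filter, a block on the replicate letter, a stricter threshold of 0.05, number series as covariate, the largest number series alone, the mean of the nuclei in the 4-group fit, a fit of the 3 nuclei, and each library left out. The fits were tested on simulated counts of 17345 genes, where 84% of changed genes were recovered between the regions, with a planted log2FC of 1.5, and 8.2% of the calls were false. In the test among the 4 groups 77.5% were recovered and 7.74% of the calls were false. The simulated nuclei did not differ from each other, and genes with the lowest means were not changed. These rates need not hold for the measured libraries. Python 3.11.15, numpy 2.4.6, pandas 2.3.3, and matplotlib 3.10.9 were used.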

Additional observations from a re-analysis of the deposited data

Results flagged for a closer look

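Each of 40 combinations of member and group was examined for a library far from the nearest of the others. In 4 of them this gap, divided by the range of the group, was larger than Dixon's 95% critical value, where chance flags about 1 in 20. *Hs2st1* was lowest in MGv library b, at 71.7 CPM, against 103.1 to 104.6 CPM in the other MGv libraries. *Hs6st3* was highest in dLG library e, at 3.38 CPM, where the other dLG libraries held at most 1.09 CPM. *Hs3st2* was highest in MGv library a, at 1.06 CPM, against 0.932 to 0.951 CPM, a difference of few counts. *Hs3st4* was highest in dLG library c, at 8.78 CPM, where the other dLG libraries held at most 2.2 CPM. No explanation of these values was tested.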

How the results depend on the processing

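Counts of called members depended on the fit. The shares of all genes called, given above, belong to edgeR's fit of all libraries at the threshold of 0.1. The counts from other fits in this section have no such share beside them. Between the regions 0 members were higher in the thalamus, and 1 with DESeq2 or the library number series as a covariate. Of the 2 higher in the cortex, 1 was called in the largest number series alone, and 3 with the covariate and with the mean of the nuclei. Among the 4 groups the 5 calls became 2 there and 3 at an adjusted p under 0.05. For the cortex against the dLG, 3 became 5 with DESeq2 and with the covariate and 1 in that series. For the dLG against the VPM, 3 became 5 with DESeq2, 0 in that series, 1 in the fit of the 3 nuclei, and 1 at 0.05. The dLG and MGv had 0, or 1 with DESeq2, and the VPM and MGv 1, or 3 with DESeq2 and 2 in that series. Of the heparan sulfate list genes, 0 were higher in the thalamus, or 1 with DESeq2 and with the mean of the nuclei. Those higher in the cortex went from 9 to 5 in that series and at 0.05 and to 11 with the mean of the nuclei, and those differing among the groups from 23 to 11 in that series. The causes were not tested.

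Leaving out 1 library gave 0 to 1 members higher in the thalamus, 2 to 3 higher in the cortex, 3 to 6 among the groups, 1 to 6 for cortex against dLG, 3 in every case against VPM, 2 to 3 against MGv, 0 to 4 for dLG against VPM, 0 to 1 for dLG against MGv, and 1 to 2 for VPM against MGv. For the list genes it gave 0 to 1 higher in the thalamus, 5 to 8 in the cortex, and 17 to 31 among the groups.

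The sign of the uncalled region log2FC of *Hs6st3* turned to -0.18 with the replicate block, -0.01 without cortex d, -0.08 without dLG e (0.45 without cortex b being the highest with 1 library left out), and -0.02 in the exact test, and that of *Ndst1* to -0.02 in the largest number series. The labels do not say whether libraries with the same replicate letter share an origin. The deviations of same-letter libraries correlated between -0.17 and 0.27 (24 pairs, median 0.02, 6 over 0.1). The median over 72 pairs of other letters was 0.00. Such correlations cannot tell whether the letters pair the samples. With the replicate block, 2 members were higher in the cortex, 4 differed among the groups, and 2 were called between the VPM and MGv. Under it the adjusted p among the groups was 0.11 for *Ndst1*, 0.112 for *Hs3st1*, and 0.0834 for *Hs6st1*, and that of *Hs3st2* for dLG against VPM was 0.126. Of 48 comparisons, a library correlated best with its own letter in 16. Levels under 3 counts, as for *Hs3st2* in dLG libraries c, d, and e, limit the precision of fold changes.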
